A study of Homo sapiens with 9 samples.

Results

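Metastasis suppressor genes were followed through the knockdown of an arginine methyltransferase and of its partner in a lung cancer cell line. The 10 genes AKAP12, GSN, CADM1, CD82, BRMS1, NME1, PEBP1, RECK, KISS1 and MTSS1 were taken by name, and each matched 1 of the 51796 genes of the count table. RNA came from A549, a human cell line established from a lung adenocarcinoma, grown in RPMI with 10% FBS under puromycin. All 9 libraries carried a stable short hairpin RNA. The control hairpin was aimed at GFP, the second at PRMT5 and the third at MEP50, with 3 biological replicates of each. PRMT5 places symmetric dimethyl marks on arginines, and MEP50, the product of WDR77, is the WD-repeat protein bound to it. The labels name 1 hairpin group per target, so loss of the target and other effects of that hairpin or line cannot be told apart.

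A metastasis suppressor is a gene whose product limits the spread of tumour cells with little effect on growth of the primary tumour. The products act at different places: on kinase scaffolds and signalling (AKAP12, PEBP1, NME1), on the actin cytoskeleton (GSN, MTSS1), at the cell surface (CADM1, CD82, RECK), in the nucleus (BRMS1) or as a secreted peptide (KISS1). In lung cancer AKAP12 and CADM1 are known for silencing by promoter methylation.

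Library depth ranged from 20806181 to 31586128 reads on genes, and 14582 genes, 9 of the 10 suppressors among them, had enough reads to be tested. Levels are read counts scaled to library size with TMM factors (CPM), and changes are log2 fold changes from edgeR's quasi-likelihood test, called at a Benjamini-Hochberg adjusted p below 0.05 over all genes tested. PRMT5 fell to 68.9 ± 1.33 CPM from 208.5 ± 3.17 in the control, and WDR77 to 12.5 ± 1.58 from 39.4 ± 0.225 (SD, n = 3), each under its own hairpin (edgeR adjusted p = 1.98e-32 and 1.33e-21). WDR77 was called higher under the PRMT5 hairpin, and PRMT5 did not pass under the MEP50 hairpin. Among 6 epithelial markers, KRT8 and KRT18 were abundant (3223 and 3195 CPM in the control) and CDH1 was at 40.1 CPM, while EPCAM and KRT19 were at 0.159 and 0.0241 CPM there. The summed level of these markers was 6345 to 6575 CPM in the control libraries, 4154 to 4313 after PRMT5 knockdown and 3870 to 4147 after MEP50 knockdown. KRT8 and KRT18 carried this sum and fell in both knockdowns, while after MEP50 knockdown CDH1 rose by 0.92 ± 0.0641 and KRT7 by 0.74 ± 0.199 on the log2 scale (edgeR adjusted p = 8.73e-14 and 0.0017). After PRMT5 knockdown CDH1 was lower (log2 fold change -0.20 ± 0.0671, edgeR adjusted p = 0.0131). KRT7 did not pass there (0.38 ± 0.199, edgeR adjusted p = 0.11). The part of these changes in the results below was not tested. Blood and endothelial markers summed to at most 0.27 CPM in any library, and PTPRC was at 0.0156 CPM or less in each group. Of 5 fibroblast markers, LUM alone was over 1 CPM in a group (5.17, 0.629 and 7.90 CPM with the GFP, PRMT5 and MEP50 hairpins). PDGFRA was called higher in both knockdowns from 0 to 5 reads per control library (0.0716, 0.290 and 0.510 CPM), and DCN and THY1 were at or near 0.

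AKAP12 lost most of its transcript in both knockdowns, and MTSS1 had the largest fold rise, from a low level. In the PRMT5 knockdown 5 of the 9 tested genes were called, where 51% of all genes were: CADM1, PEBP1 and MTSS1 were higher (26.1% of all genes) and AKAP12 and GSN lower (24.9%). In the MEP50 knockdown 7 of 9 were called, against 51.7% of all genes. CADM1, PEBP1, MTSS1 and BRMS1 were higher (26.5% of all genes) and AKAP12, GSN and RECK lower (25.2%). AKAP12 after PRMT5 knockdown, and AKAP12 and MTSS1 after MEP50 knockdown, changed by at least 2-fold, as did 7.25% and 7.51% of all genes. The shares of suppressors called were 55.6% and 77.8%; the first is near that of all genes, and neither was tested against it. The median log2 fold change of the 9 genes was 0.09 and 0.12, beside 0.0032 and -0.0019 over all genes tested. Both comparisons used the same control libraries, so the calls they have in common are not independent of each other.

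**Figure D1:**
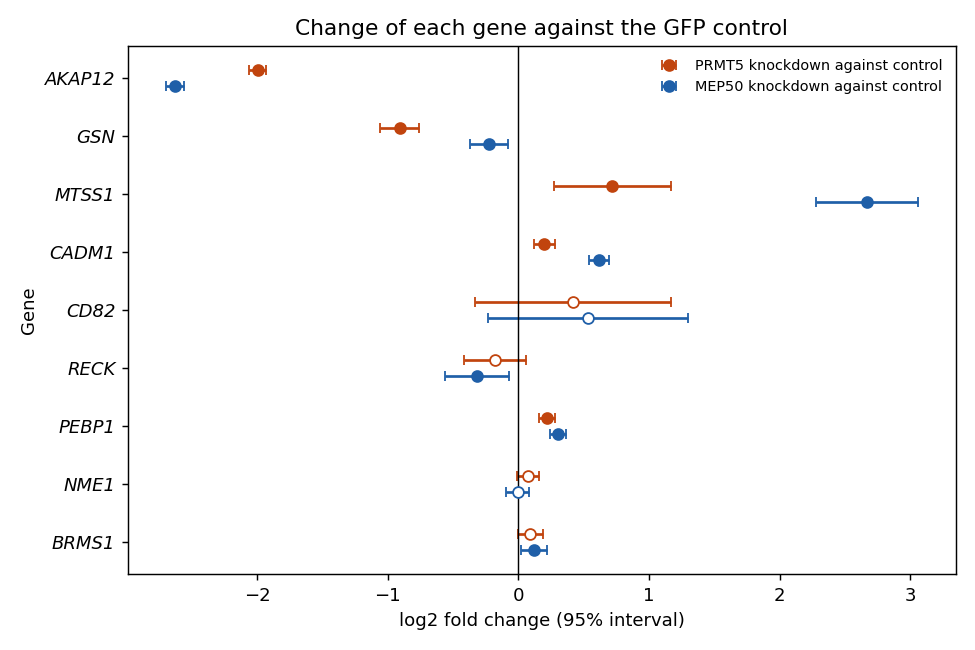
Log2 fold change of each tested gene against the GFP control, with its 95% interval from the edgeR fit (n = 3 per group, x axis), for the PRMT5 knockdown (orange) and the MEP50 knockdown (blue). Filled points passed the test and open points did not; AKAP12 lies at -1.99 and -2.63, MTSS1 at 0.72 and 2.67, and NME1 close to 0 in both.

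AKAP12 (ENSG00000131016), also called gravin, is a scaffold that holds protein kinases A and C and Src at the plasma membrane. Its level was 626, 646 and 628 CPM in control libraries 1 to 3. It was 164, 158 and 154 CPM in the PRMT5 knockdown and 109, 97 and 102 CPM in the MEP50 knockdown. The 3 groups did not overlap, and every control library lay far above every knockdown library. Lack of overlap was common here. It held for 57.2% of all genes tested between PRMT5 knockdown and control and 56.9% between MEP50 knockdown and control. Between the knockdowns it held for 47.2%. Means were 633 ± 11 CPM with the GFP hairpin, 159 ± 5.04 with the PRMT5 hairpin and 102 ± 5.82 with the MEP50 hairpin (SD, n = 3), which left 25.1% and 16.2% of the control level. The log2 fold change was -1.99 ± 0.0328 (SE) after PRMT5 knockdown and -2.63 ± 0.0345 after MEP50 knockdown (edgeR adjusted p = 1.81e-36 and 6.53e-40). The level after PRMT5 knockdown was 1.55-fold above that after MEP50 knockdown (log2 difference 0.63 ± 0.0348, edgeR adjusted p = 2.54e-18). In bulk RNA fewer cells with the transcript and less transcript per cell cannot be told apart.

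In the control the level of AKAP12 ranked 168 among the 14582 genes tested. Its fold change was the fall of rank 154 among them in the PRMT5 knockdown and of rank 68 in the MEP50 knockdown. Among the 2410 genes with at least 100 CPM in the control, it was the fall of rank 13 and of rank 4. In CPM lost (474 and 531) it ranked 14 and 16 among all genes. The ranks by level and by CPM lost are not scaled to length, and AKAP12 has 8741 bases of annotated exon. The authors' deposited tables gave log2 fold changes of -1.99 and -2.62 for AKAP12 with DESeq2.

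**Figure D2:**
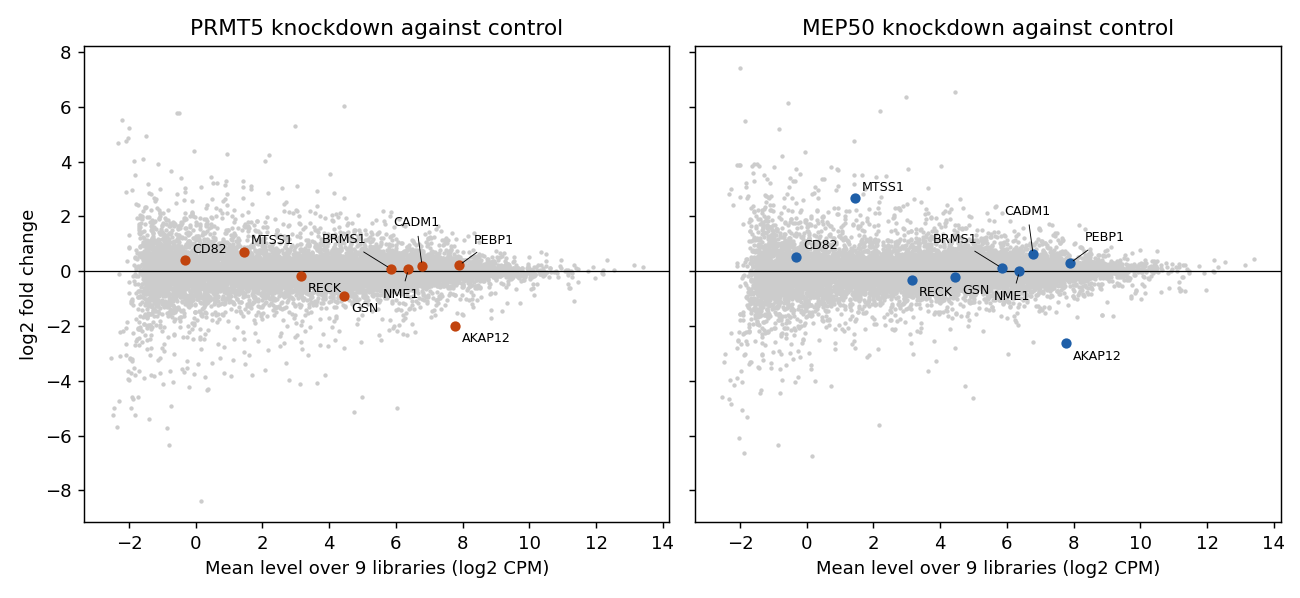
Log2 fold change (y axis) against the mean level over the 9 libraries in log2 CPM (x axis) for the 14582 genes tested (grey) and the 9 suppressors (coloured and named), for the PRMT5 knockdown on the left and the MEP50 knockdown on the right. AKAP12 sits below nearly all genes of like level, MTSS1 rises from a low level, and the other suppressors lie within the grey band.

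RefSeq gives AKAP12 3 alternative starts of transcription, and reads were counted per gene, so the fall cannot be assigned to any of them. The stretches of 140 bases before each start are shown because each contains the E-box CACGTG, given in capitals. They lie on the plus strand of GRCh38.p14 at chr6:151239827-151239966, chr6:151325391-151325530 and chr6:151341566-151341705, and each ends at the base before the start.
AKAP12 start 1: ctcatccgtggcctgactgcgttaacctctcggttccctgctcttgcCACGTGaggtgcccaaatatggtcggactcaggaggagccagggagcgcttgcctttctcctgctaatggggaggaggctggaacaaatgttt
AKAP12 start 2: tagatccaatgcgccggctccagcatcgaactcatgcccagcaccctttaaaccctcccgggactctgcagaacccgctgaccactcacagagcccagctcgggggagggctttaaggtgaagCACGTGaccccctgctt
AKAP12 start 3: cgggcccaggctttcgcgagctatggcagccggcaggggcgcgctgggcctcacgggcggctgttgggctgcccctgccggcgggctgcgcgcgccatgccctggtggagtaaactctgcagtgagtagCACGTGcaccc
The E-box begins 93, 17 and 11 bases before the start. CACGTG reads the same on both strands, and it was chosen for search after these sequences were seen. Its presence before all 3 starts was therefore fixed in advance, and the shares that follow are a description and not a test. Of 34943 windows of 300 bases around RefSeq starts (250 before and 50 after), 7.23% contained it. Of 1013 genes with 3 windows, 6 had it in all 3. Among the suppressors, 8 had windows (15 in all), and CACGTG was also in the window of NME1 and in none of the 11 windows of GSN, CD82, BRMS1, PEBP1, RECK and KISS1. The GC-box GGGCGG, on either strand, was in all 3 AKAP12 windows and in 44.9% of all windows. These matches describe letters, and no binding was measured here.

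GSN (ENSG00000148180) also fell in both knockdowns, but in the opposite order. It encodes gelsolin, which severs and caps actin filaments when calcium rises. Its level was 26.2, 29.6 and 28.7 CPM with the GFP hairpin, 15.2, 14.7 and 15.1 with the PRMT5 hairpin and 23.3, 23.4 and 25.5 with the MEP50 hairpin. No library of one group reached the range of another. The mean fell from 28.2 ± 1.74 to 15 ± 0.279 CPM with the PRMT5 hairpin (log2 fold change -0.91 ± 0.0744, edgeR adjusted p = 1.49e-13) and to 24.1 ± 1.25 CPM with the MEP50 hairpin (-0.22 ± 0.0724, edgeR adjusted p = 0.00908). Leaving out GFP control replicate 2 ended the second call (-0.19, adjusted p = 0.0549). GSN was 1.61-fold lower after PRMT5 than after MEP50 knockdown (edgeR adjusted p = 1.29e-09), whereas AKAP12 was higher there. The antisense genes GSN-AS1 and AL513122.2, whose exons overlap those of GSN, had 0 to 2 reads per library. The libraries were stranded, but whether the counting used strand is not given in the sources used here. Without it, reads from stretches where exons of a gene and of an opposite-strand partner overlap cannot be assigned to either. Cytoplasmic and secreted gelsolin come from the same gene and were counted together.

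MTSS1 (ENSG00000170873) showed the widest gap between both knockdowns. It encodes an I-BAR protein that bends membranes and binds actin. Reads numbered 30, 37 and 32 with the GFP hairpin, 45, 76 and 54 with the PRMT5 hairpin and 147, 174 and 219 with the MEP50 hairpin. In scaled units these were 1.20, 1.25 and 1.16 CPM, then 1.78, 2.45 and 1.70 CPM, then 7.10, 8.13 and 7.71 CPM. All 3 groups were apart, and the MEP50 libraries stood well above the others. MTSS1 rose 6.35-fold with the MEP50 hairpin (log2 fold change 2.67 ± 0.194, edgeR adjusted p = 3.83e-15). The ratio of pooled reads was 6.31, with a 95% interval of 5.08 to 7.90 that covers counting error only. After PRMT5 knockdown it was 1.65-fold higher (0.72 ± 0.221, edgeR adjusted p = 0.00603), a call lost without PRMT5 knockdown replicate 2 (0.53, adjusted p = 0.0748). The difference between the knockdowns was 3.85-fold (log2 -1.95 ± 0.178, edgeR adjusted p = 7.39e-12). The authors' deposited table listed MTSS1 in the MEP50 knockdown at a log2 fold change of 2.33 from DESeq2 and 2.67 from edgeR. NDUFB9, a respiratory chain gene on the opposite strand whose exons overlap MTSS1, was at 163, 167 and 172 CPM in the 3 groups and did not pass in any comparison (log2 fold change 0.07 ± 0.0385 after MEP50 knockdown, edgeR adjusted p = 0.115).

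Of the 3 surface molecules, CADM1 was higher in both knockdowns, RECK was lower in 1 and CD82 passed in neither. CADM1 (ENSG00000182985) encodes an immunoglobulin-like adhesion molecule that joins epithelial cells. Its level was 87.1, 91.6 and 94.8 CPM with the GFP hairpin, 106, 102 and 106 with the PRMT5 hairpin and 137, 142 and 141 with the MEP50 hairpin. The groups rose in steps without overlap. CADM1 was 1.15-fold above the control after PRMT5 knockdown (log2 fold change 0.20 ± 0.0383, edgeR adjusted p = 2.82e-05) and 1.53-fold after MEP50 knockdown (0.62 ± 0.0382, edgeR adjusted p = 2.71e-17). The MEP50 knockdown exceeded the PRMT5 knockdown 1.33-fold (edgeR adjusted p = 5.48e-12).

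RECK (ENSG00000122707) encodes a membrane-anchored inhibitor of matrix metalloproteases. It had 11.5, 8.77 and 9.56 CPM with the GFP hairpin, 7.73, 9.61 and 8.80 with the PRMT5 hairpin and 8.36, 8.51 and 7.15 with the MEP50 hairpin. The PRMT5 libraries overlapped the control, and the MEP50 libraries lay just under its lowest library. The log2 fold change was -0.31 ± 0.122 after MEP50 knockdown (edgeR adjusted p = 0.0286). That call was lost with DESeq2 (-0.32, adjusted p = 0.054), without GFP control replicate 1 (-0.20, adjusted p = 0.226) and without MEP50 knockdown replicate 3 (-0.24, adjusted p = 0.152). It did not pass after PRMT5 knockdown (-0.18, 95% interval -0.42 to 0.057, edgeR adjusted p = 0.207).

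CD82 (ENSG00000085117), a tetraspanin that organises integrins and growth factor receptors in the membrane, had few reads. It had 15 to 18 reads per control library, 18 to 26 in the PRMT5 knockdown and 18 to 22 in the MEP50 knockdown. AC010768.1, whose exons overlap CD82 on the opposite strand, had 0 reads in every library. Pooled reads gave ratios to the control of 1.33 (95% counting interval 0.907 to 1.97) and 1.42 (0.955 to 2.13). Neither comparison passed (log2 fold change 0.42 and 0.53, edgeR adjusted p = 0.366 and 0.248), and at this depth the 95% intervals reached 1.17 and 1.3 on the log2 scale.

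PEBP1 (ENSG00000089220), the Raf kinase inhibitor protein, had the highest counted level per length of the 10 and rose slightly. Its level was 210.3, 212 and 211 CPM with the GFP hairpin, 255, 238 and 246 with the PRMT5 hairpin and 255, 263 and 263 with the MEP50 hairpin. All 6 knockdown libraries exceeded all 3 control libraries. The log2 fold change was 0.22 ± 0.0305 after PRMT5 knockdown and 0.30 ± 0.0307 after MEP50 knockdown (edgeR adjusted p = 6.89e-08 and 4.60e-11). The knockdowns differed from each other by -0.08 ± 0.0304 (edgeR adjusted p = 0.031), a call lost in 5 of 17 alternative fits. Exons of VSIG10 on the opposite strand overlap PEBP1; VSIG10 fell by 0.29 after PRMT5 knockdown (edgeR adjusted p = 6.40e-05) and was at 36.7 CPM in both the control and the MEP50 knockdown.

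NME1 and BRMS1 differed from the control by at most 1.09-fold. NME1 (ENSG00000239672), a nucleoside diphosphate kinase, had 79.3, 84.1 and 81.4 CPM with the GFP hairpin, 84.7, 82.5 and 90.8 with the PRMT5 hairpin and 81.2, 82.5 and 80.5 with the MEP50 hairpin. These ranges overlapped the control, and the 95% interval of the log2 fold change was -0.0097 to 0.16 after PRMT5 and -0.092 to 0.083 after MEP50 knockdown (edgeR adjusted p = 0.136 and 0.945). Exons of the readthrough gene NME1-NME2 overlap NME1 on the same strand. NME2 was counted 0 times in all 9 libraries and NME1-NME2 40 to 83 times per library, so reads of these genes are uncertain. BRMS1 (ENSG00000174744), a subunit of SIN3-HDAC corepressor complexes, had 53.3, 52.6 and 57.8 CPM with the GFP hairpin, 57.8, 59.1 and 57.7 with the PRMT5 hairpin and 57.5, 60.8 and 59.8 with the MEP50 hairpin. The top control library lay inside both knockdown ranges. BRMS1 was 1.09-fold higher with the MEP50 hairpin (log2 fold change 0.12 ± 0.0495, edgeR adjusted p = 0.0369) and did not pass with the PRMT5 hairpin (0.09 ± 0.0487, edgeR adjusted p = 0.111). The MEP50 call was lost in 8 of 17 alternative fits, among them DESeq2 (adjusted p = 0.0666) and the fits without GFP control replicates 1 or 2 or MEP50 knockdown replicates 2 or 3 (log2 fold change 0.11, 0.09, 0.11 and 0.11). The PRMT5 value passed without GFP control replicate 3 (log2 fold change 0.13, adjusted p = 0.0483).

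KISS1 (ENSG00000170498), the precursor of the kisspeptins, was not detectable at this depth. It had 3 reads in all, 0 with the GFP hairpin, 1 with the PRMT5 hairpin and 2 with the MEP50 hairpin. A count of 0 in the 82246125 control reads allows up to 0.0365 CPM (3 counts over the group), so no fold change is given.

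**Figure D3:**
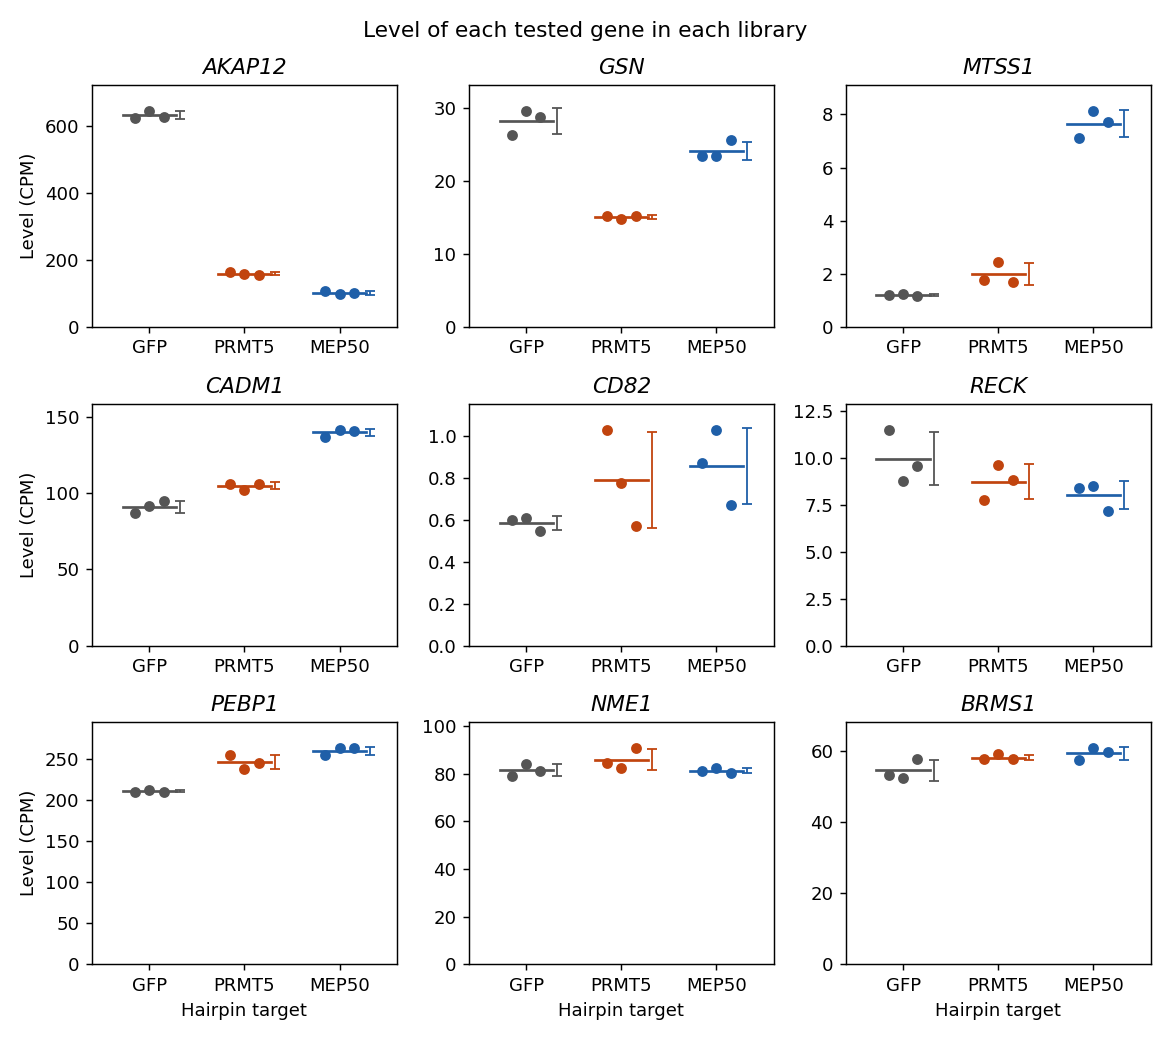
Level in CPM (y axis, from 0) of the 9 tested genes in each library (points), with the mean (line) and SD (bar) of 3 replicates, by hairpin target (x axis). AKAP12 drops from 633 CPM to 159 and 102, GSN is lowest with the PRMT5 hairpin, and MTSS1 and CADM1 are highest with the MEP50 hairpin.

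Directly compared, the knockdowns differed for 5 of the 9 tested genes, where 39.7% of all genes differed. AKAP12 was higher in the PRMT5 knockdown (19.2% of all genes were) and GSN, CADM1, PEBP1 and MTSS1 were lower (20.5%). MTSS1 was the one difference of at least 2-fold, as found for 3.19% of all genes. For AKAP12, MTSS1, CADM1 and PEBP1 the MEP50 knockdown lay farther from the control, and for GSN the PRMT5 knockdown did.

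The order of the genes by level per length changed through AKAP12 and CADM1. Per kilobase of annotated exon, PEBP1 (119 CPM per kb) and AKAP12 (72.4 ± 1.25) led in the control, before NME1 (23.7), BRMS1 (21.7), CADM1 (8.27), GSN (2.56), RECK (1.64), MTSS1 (0.155), CD82 (0.144) and KISS1 (0). After PRMT5 knockdown AKAP12 (18.2 ± 0.576 CPM per kb) stood below NME1 (25) and BRMS1 (23.1). After MEP50 knockdown, at 11.7 ± 0.666, it also stood below CADM1 (12.7 ± 0.224), by little more than their spread. NME1 and BRMS1 did not differ beyond their spread in the MEP50 knockdown (23.7 ± 0.298 and 23.6 ± 0.686 CPM per kb), nor did RECK and GSN after PRMT5 knockdown (1.44 ± 0.156 and 1.36 ± 0.0253). These lengths join the exons of all isoforms, so levels per kb are low for genes with many isoforms, such as GSN. Exons of NME1 overlap those of NME1-NME2 and its reads are uncertain, so its place in this order is uncertain too.

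The genes whose profile over the 9 libraries was most like that of AKAP12 were PLEKHH2, the noncoding RNA gene TARID, DNHD1, RPH3A and EDN1, which encodes endothelin. Likeness was the root mean square difference of log2 CPM after centring each gene, and it was 0.192 to 0.243 for these 5. The median over 12679 genes was 1.13. A gene without change would lie about that far from AKAP12, so the median does not show how close the 5 genes are. PLEKHH2 went from 42.8 ± 2.39 to 8.69 ± 0.855 CPM after PRMT5 knockdown and 7.38 ± 0.441 after MEP50 knockdown. EDN1 went from 90 ± 3.78 to 32.8 ± 0.929 and 19.6 ± 2.13 CPM. AKAP12, EDN1 and DNHD1 lay higher with the PRMT5 than with the MEP50 hairpin by 0.63, 0.74 and 0.37 on the log2 scale, and for PLEKHH2, TARID and RPH3A, which did not pass between the knockdowns, the differences were 0.22, 0.41 and 0.57. Libraries of TARID and RPH3A overlapped between the knockdowns. The genes were picked for this profile, so these values are a description.

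**Figure D4:**
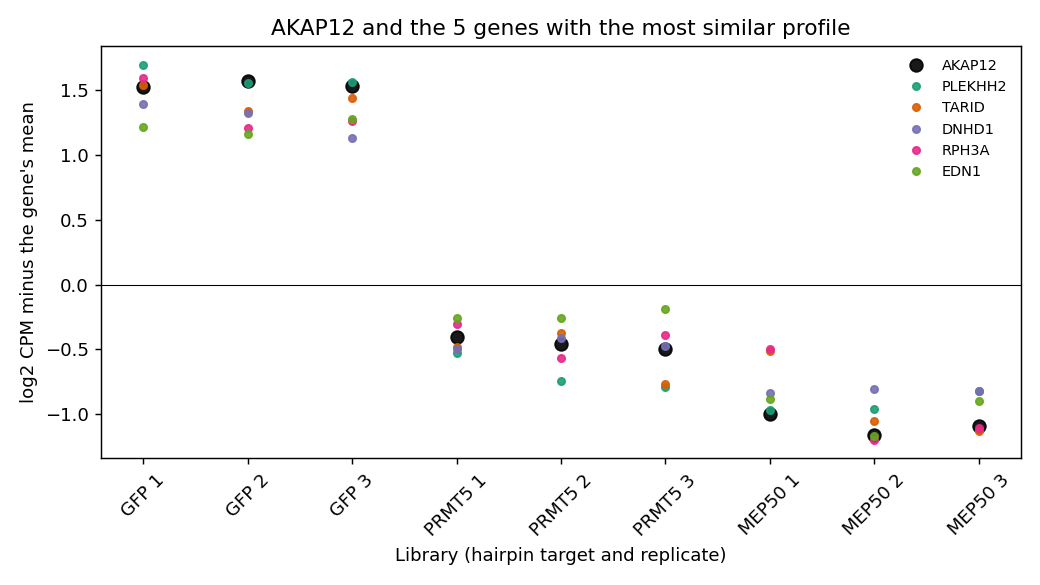
Log2 CPM minus the mean of the gene over all libraries (y axis) in each of the 9 libraries (x axis) for AKAP12 (large black points) and the 5 genes of most similar profile (small coloured points). All 6 genes are high in the 3 control libraries and low in the 6 knockdown libraries, and the genes were chosen for this.

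Other genes of the metastasis suppressor class changed in both directions. Of 21 such genes matched, 16 were tested; 6 rose and 5 fell in each knockdown, with a median of 0.03 in both. This count and those of the lists that follow stand beside 26.1% of all genes higher and 24.9% lower after PRMT5 knockdown, and 26.5% and 25.2% after MEP50 knockdown, and no list was tested against these shares. The actin-binding tropomyosin gene TPM1 rose from 114 ± 2.68 to 301 ± 1.88 CPM after PRMT5 knockdown and 254 ± 11.6 after MEP50 knockdown. The kinase gene HUNK rose by 1.33 ± 0.235 and 0.83 ± 0.25 on the log2 scale, at a low level (mean 2.39 CPM over the 9 libraries). KISS1R, the receptor for the kisspeptins, rose by 1.03 ± 0.265 and 0.95 ± 0.274, and it had 25 to 34 reads per control library.

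The binding partners of AKAP12 showed no common direction. Of 19 tested, 8 rose and 5 fell in each knockdown (median 0.02 and 0.08). PRKAR2B, a regulatory subunit of protein kinase A, rose by 2.00 ± 0.243 and 1.14 ± 0.266 at a low level (mean 2.42 CPM over the 9 libraries). PRKCA, a protein kinase C, rose by 0.62 ± 0.0484 and 0.52 ± 0.0495. Cyclin D1 (CCND1) fell from 610.3 ± 8.29 to 353 ± 4.06 and 443 ± 8.84 CPM. Of 15 tested genes of other anchoring proteins for protein kinase A, 4 rose and 5 fell after PRMT5 knockdown and 6 rose and 5 fell after MEP50 knockdown. The microtubule protein gene MAP2 fell from 183 ± 6.95 to 37.5 ± 1.61 and 59.4 ± 2.99 CPM. AKAP5 fell by 0.62 ± 0.145 and 1.11 ± 0.157 (mean 4.75 CPM over the 9 libraries). AKAP6 (mean 4.17 CPM) rose by 1.08 ± 0.17 after MEP50 knockdown and did not pass after PRMT5 knockdown (0.18 ± 0.178, edgeR adjusted p = 0.424).

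Of 6 tested relatives of gelsolin and cofilins, 4 fell and 1 rose after PRMT5 knockdown (median -0.36), and 3 fell and 2 rose after MEP50 knockdown (median -0.09). CAPG, an actin-capping relative, fell by 2.15 ± 0.345 after PRMT5 knockdown and was at -0.38 ± 0.298 after MEP50 knockdown (edgeR adjusted p = 0.296). Its level was low (mean 1.51 CPM over the 9 libraries). FLII fell by 0.39 ± 0.0356 and 0.32 ± 0.036. Of 16 tested I-BAR proteins and partners of MTSS1, 6 rose and 5 fell after PRMT5 knockdown and 5 rose and 1 fell after MEP50 knockdown (median 0.04 and 0.08). The hedgehog factor gene GLI3 rose by 2.03 ± 0.104 and 1.99 ± 0.106, and the phosphatase gene PTPRD by 1.41 ± 0.086 and 1.02 ± 0.0896.

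At the cell surface, CADM relatives, nectins and partners of CADM1 went both ways. Of 16 tested, 6 rose and 5 fell after PRMT5 knockdown, and 4 rose and 5 fell after MEP50 knockdown. EPB41L1, a membrane skeleton protein gene, fell by 1.52 ± 0.0445 and 0.94 ± 0.0436, and the nectin-like receptor gene PVR rose by 0.62 ± 0.0327 and 0.45 ± 0.0333. Of 20 tested tetraspanins and their partners, 7 rose and 9 fell after PRMT5 knockdown and 7 rose and 4 fell after MEP50 knockdown. TSPAN7 rose from 1.51 ± 0.228 to 4.20 ± 0.257 and 7.20 ± 1.19 CPM, and IGSF8 fell by 1.00 ± 0.143 and 0.71 ± 0.144. Of 8 tested targets and partners of RECK, 5 rose and 2 fell after PRMT5 knockdown and 3 rose and 3 fell after MEP50 knockdown. ADGRA2, the receptor that works with RECK in Wnt signalling, rose from 6.02 ± 0.804 to 12.5 ± 1.2 and 20.4 ± 2.08 CPM. The protease gene MMP14 (mean 3.18 CPM over the 9 libraries) fell by 0.57 ± 0.176 and 0.62 ± 0.182. MMP2, an enzyme that RECK inhibits, had 0 or 1 read per library.

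Partners of PEBP1, BRMS1, NME1 and KISS1 also went both ways. Of 14 tested genes of the Raf, ERK and IKK kinases around PEBP1, 5 rose and 3 fell after PRMT5 knockdown and 7 rose and 2 fell after MEP50 knockdown. MAP3K14 rose by 0.77 ± 0.0568 and CHUK fell by 0.54 ± 0.0445 after PRMT5 knockdown. Neither passed after MEP50 knockdown (-0.12 ± 0.0608 and -0.08 ± 0.0441, edgeR adjusted p = 0.0872 and 0.127). Of 16 SIN3-HDAC genes, 3 rose and 4 fell, then 5 rose and 4 fell, with SAP30 up by 0.29 ± 0.0968 and 0.77 ± 0.0959. Of 5 tested NME relatives, 2 rose and 1 fell after PRMT5 knockdown, with NME3 at 0.34 ± 0.09. After MEP50 knockdown the lowest edgeR adjusted p among the 5 was 0.0795, for NME6 (log2 fold change -0.19, not adjusted p = 0.0439). All 7 tested genes of the kisspeptin receptor axis were called after PRMT5 knockdown (4 higher, 3 lower) and 6 after MEP50 knockdown (5 higher, 1 lower), where 51% and 51.7% of all genes were, with ARRB1 down by 1.05 ± 0.102 and 0.82 ± 0.103 and ARRB2 up by 0.67 ± 0.0449 and 0.87 ± 0.0452. For each change of a single gene named here as a rise or fall in these lists, the edgeR adjusted p was 0.0102 or lower.

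**Figure D5:**
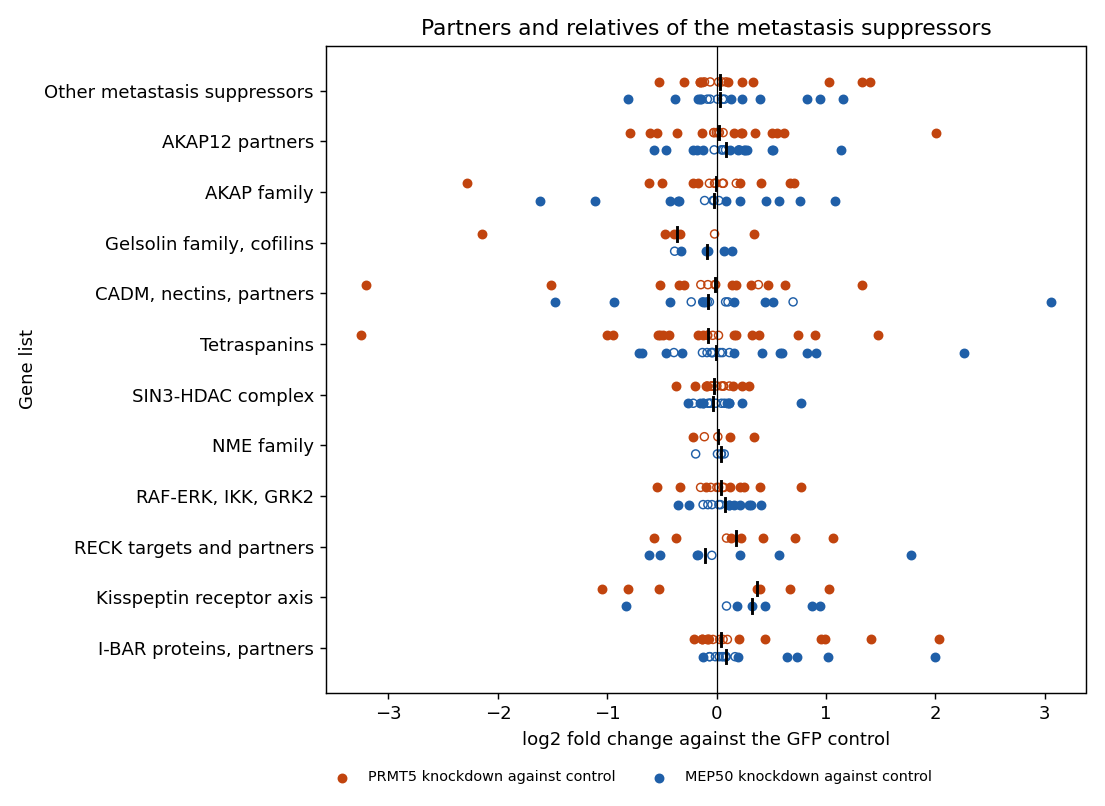
Log2 fold change against the GFP control (x axis) of each tested gene in 12 lists of partners and relatives (y axis), for the PRMT5 knockdown (orange) and the MEP50 knockdown (blue). Filled points passed the test, open points did not and black ticks are list medians; the medians lie between -0.36 and 0.36, and single genes spread to both sides in most lists.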

How the data were processed

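RNA from 9 libraries was sequenced after rRNA depletion with stranded libraries, per the labels' protocols. The authors' deposited table held whole-number read counts per Ensembl gene; Trim Galore, STAR and HTSeq and the hg19 build are named in the submitters' processing notes, and versions and the strand setting of the counting are not given in the sources used here. The authors' deposited comparison tables held log2 fold changes and adjusted p-values of DESeq2 and edgeR, per the file headers, for 6807 and 6832 genes, all under 0.05 in both tests. They list AKAP12, GSN, CADM1, PEBP1 and MTSS1 in both.

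The 5 HTSeq summary lines were left out; reads outside genes made up 11.9 to 14.5% and ambiguous reads 2.28 to 2.39%. Symbols came from a gene-name table (86.5% of identifiers), exon lengths and overlaps from GENCODE release 29 and promoter windows from RefSeq (GRCh38.p14). Counts were tested with edgeR 4.0.16 in R 4.3.3 (TMM, filterByExpr, robust quasi-likelihood fit of all 9 libraries, group as the only term), which was tested on simulated data. Standard errors were derived from the F statistic of each test. The chi-square per degree of freedom between replicates was 3.35 to 4.69, above counting noise. What the biological replicates shared is not stated, so p-values measure the spread between these libraries. The fit moderates the spread of each gene with that of the other genes tested. A p-value therefore does not rest on the replicates of that gene alone. Intervals of pooled-read ratios and floors cover counting error only. The 95% intervals of log2 fold changes come from the edgeR fit and include the spread between libraries.

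The genes and lists were chosen with earlier results of these data known. All 10 suppressors are given; in each list the genes named come from the 3 called genes with the largest change and a mean of at least 1 CPM, and MMP2, NME2, NME6 and PDGFRA were named after their values were seen. TXNIP and AKAP2 were not matched and are not analysed here. Alternatives were a DESeq2 1.42.0 fit, scaling by RLE, by the upper quartile or by library totals alone, a stricter low-count filter (1 CPM in 3 libraries) or none, a block for replicate number, fits restricted to the 6 libraries compared, fits leaving out each library, and, for the lists, calls of at least 2-fold only.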

Additional observations from a re-analysis of the deposited data

Results flagged for a closer look

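A direct test between the knockdowns found that the effects on 5 genes differed (PRMT5 minus MEP50 knockdown, edgeR). The log2 difference was 0.63 for AKAP12, -0.69 for GSN, -0.42 for CADM1, -0.081 for PEBP1 and -1.95 for MTSS1. Both effects on each gene had the same sign against the control. Groups of 3 libraries are too small for the check for single outlying samples.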

How the results depend on the processing

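AKAP12 and CADM1 kept direction and call in all 3 comparisons under all 17 alternative fits (AKAP12 -2.03 to -1.98 after PRMT5 and -2.66 to -2.59 after MEP50 knockdown). Over the 27 gene results, 433 of 456 alternative values kept direction and side of the threshold. Many of these alternatives could change little. The TMM factors were only 0.990 to 1.009, and some of the libraries left out were in neither group of the comparison. Counts of called suppressors were 4 to 6 after PRMT5 knockdown and 5 to 7 after MEP50 knockdown, and 4 to 5 between the knockdowns. BRMS1 after MEP50 knockdown lost its call with upper-quartile scaling (0.11), library totals (0.11), no low-count filter (0.10) and DESeq2 (0.12), and ranged from 0.090 to 0.17 with 1 library left out. RECK after MEP50 knockdown lost it with DESeq2 (-0.32) and ranged from -0.40 to -0.20. PEBP1 between the knockdowns lost it with library totals (-0.060) and no low-count filter (-0.071), and ranged from -0.12 to -0.056. With 1 library left out, GSN after MEP50 knockdown ranged from -0.28 to -0.19, MTSS1 after PRMT5 knockdown from 0.53 to 0.82 and BRMS1 after PRMT5 knockdown from 0.062 to 0.13. The values that changed sign never passed the test: NME1 after MEP50 knockdown (-0.021 to 0.014, and 0.0018 without MEP50 knockdown replicate 1) and CD82 between the knockdowns (-0.34 to 0.071, and 0.027 without MEP50 knockdown replicate 2). The cause of these changes was not tested. Where 1 library was left out, the number of libraries was smaller too. Of 155 tested list genes, 106, 94 and 75 were called in the 3 comparisons (beside 51%, 51.7% and 39.7% of all genes), and 15, 11 and 3 with calls of at least 2-fold only (beside 7.25%, 7.51% and 3.19% of all genes). Same-numbered replicates did not deviate together (correlations -0.036 to 0.052), and with the replicate number as a block 5, 7 and 5 suppressors were called, as without it. Low counts limit CD82 and KISS1.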
